A study of Mus musculus with 18 samples.

Results

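The genes of the slow and fast troponins and the tropomyosins were followed in myofibers isolated from mouse quadriceps, a muscle made mainly of fast fibers. The set is a list of named genes with no threshold on a value, and holds 9 of the 43430 genes in the count table. It comprises the slow troponin genes Tnnc1, Tnni1 and Tnnt1, their fast counterparts Tnnc2, Tnni2 and Tnnt3, and the tropomyosin genes Tpm1, Tpm2 and Tpm3. All 9 passed the filter on low counts, which left 13596 genes in the tests.

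The mice were adult males and females of the strain labelled C57BL/6 (C57BL/6J in the study's methods), with 3 libraries in each of 6 groups. Vehicle mice received DMSO in saline by intraperitoneal injection every day. Daily mice received prednisone, a synthetic glucocorticoid, every day, and weekly mice received prednisone on 1 day a week and vehicle on the other days. The series title places the treatments in a study of muscle performance and sex, and treatment ran for about a month, with the last weekly dose given shortly before, but not on, the day of harvest. Polyadenylated RNA was taken from what a strainer held back once collagenase II had loosened the tissue. Cells other than myofibers can remain in such material.

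Troponin and tropomyosin form the calcium switch of the thin filament. Tropomyosin lies along actin and blocks myosin at rest, the troponin T subunit anchors the complex to tropomyosin, troponin I holds it in the blocking position, and troponin C binds calcium and releases the block. Slow and fast fibers use separate genes for each troponin subunit, while Tpm3 encodes the slow alpha-tropomyosin, Tpm1 the fast alpha-tropomyosin and Tpm2 the beta-tropomyosin that both fiber types contain.

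Total counts per library ranged from 10506661 to 14686654, and the 9 genes together took 3.76% to 6.98% of them. The summed level of the myofiber markers Acta1, Ckm, Myh4 and Mylpf was 83492 to 149773 CPM (counts per 1000000, with library sizes corrected by trimmed mean of M values) in all libraries, and none of these markers was at 0. Adipocyte markers (Adipoq, Plin1, Lep, Cfd, Cidec and Retn, summed) moved with the treatments, from 43.8 to 72.8 CPM in vehicle males to 212 to 669 CPM in daily males, and from 121 to 152 CPM in vehicle females to 475 to 1832 CPM in daily females. In weekly libraries this sum was 196 to 502 CPM in males and 169 to 3110 CPM in females. The share of mitochondrially encoded counts ran from 11.7% to 18.3% in daily females and from 21.1% to 26.3% in vehicle females, and overlapped in males, at 17.7% to 24.5% in daily and 16.95% to 32.6% in vehicle libraries. Weekly libraries had 25.6% to 27.6% in males and 13.1% to 36.4% in females.

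Levels per kilobase of exon put the fast genes far above the slow ones. Tnnt3 had a median over the 18 libraries of 11319 CPM per kb, Tnni2 4833, Tnnc2 2455, Tpm1 2329 and Tpm2 1542 CPM per kb. Tpm3 followed at 12.5 CPM per kb, and the slow troponin genes came last, with Tnnt1 at 2.40, Tnnc1 at 2.29 and Tnni1 at 0.388 CPM per kb. Tnnt3 lay above Tnni2 in every library with no overlap of their ranges, and Tpm2 lay above Tpm3 in the same way. Tnni2 exceeded Tnnc2, and Tpm1 exceeded Tpm2, within each of the 18 libraries, although their ranges over libraries overlapped. Tnnc2 and Tpm1 were close neighbors, with Tnnc2 higher in 11 of 18 libraries, and Tnnt1 exceeded Tnnc1 in 8 of 18. Exon length here merges all transcripts of a gene, 6485 bases for Tpm1 against 1583 for Tnnt3 and 800 for Tnnc2. The order among the fast genes depends on this choice of length.

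The slow troponin genes were at a few CPM or less in most libraries and stood high in 2. Tnnc1, the calcium-binding subunit of slow and cardiac muscle, was at 0.175, 1.47 and 1.66 CPM in vehicle males and at 2.37, 0.434 and 2.51 CPM in vehicle females. In weekly males it reached 2.197, 2.59 and 23.3 CPM, and in weekly females 129, 2.39 and 3.23 CPM. Daily males had 1.04, 1.88 and 4.50 CPM and daily females 1.23, 4.34 and 2.66 CPM. Weekly male replicate 3 and weekly female replicate 1 therefore lay above all other libraries, whose highest value was 4.50 CPM, by factors of 5.17 and 28.7.

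Tnni1, the inhibitory subunit of slow fibers, had the same 2 libraries at the top. Its levels were 0.0877, 1.08 and 0.728 CPM in vehicle males, 1.32, 0.960 and 17.1 CPM in weekly males and 0.625, 1.57 and 3.33 CPM in daily males. In females they were 2.79, 0 and 1.34 CPM with vehicle, 121, 1.24 and 2.77 CPM with weekly prednisone and 1.46, 2.77 and 1.45 CPM with daily prednisone. The library listed at 0, vehicle female replicate 2, allows up to 3 counts, which is 0.326 CPM there, and it also held no count of Tnnt1. Of all 2342 counts of Tnni1 in the table, 76.9% came from weekly female replicate 1 and 10.5% from weekly male replicate 3.

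Tnnt1, the tropomyosin-binding subunit of slow fibers, was the most abundant of the 3 in counts. It was at 0.175, 1.96 and 4.27 CPM in vehicle males, 4.83, 5.76 and 36.7 CPM in weekly males and 2.36, 3.89 and 9.19 CPM in daily males. Vehicle females had 5.75, 0 and 4.12 CPM, weekly females 189, 6.02 and 5.93 CPM and daily females 3.22, 9.05 and 6.52 CPM. All 3 weekly libraries lay above all 3 vehicle libraries in each sex, by a margin that was narrow outside the 2 high libraries.

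**Figure D1:**
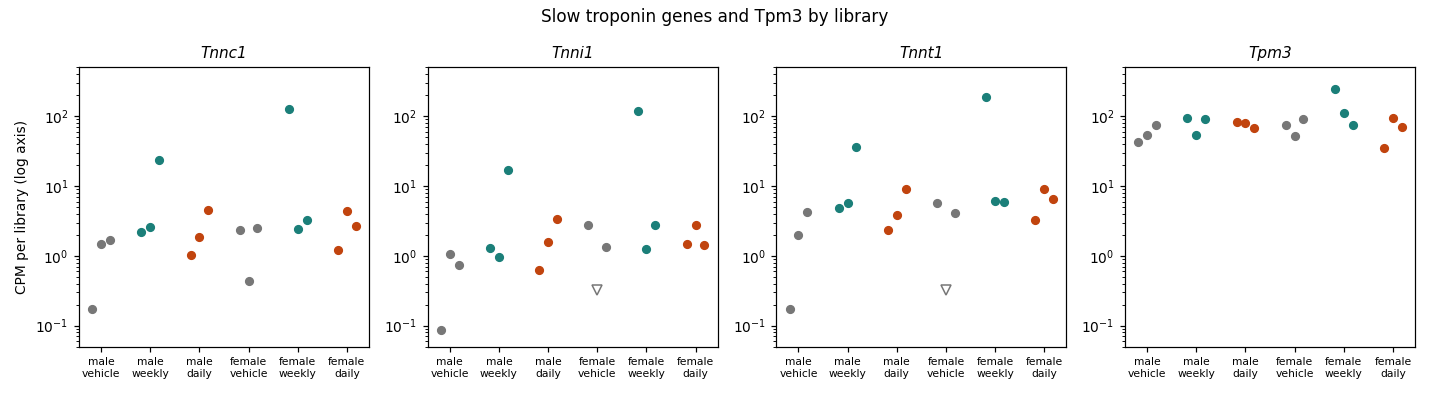
CPM of Tnnc1, Tnni1, Tnnt1 and Tpm3 in each of 18 libraries on a log axis, by group, with 1 point per library in replicate order; open triangles mark libraries with no count, drawn at the level of 3 counts. Weekly female replicate 1, at 129, 121 and 189 CPM for the slow troponin genes, and weekly male replicate 3 stand above the other 16 libraries for these 3 genes, and for Tpm3 weekly female replicate 1 alone does.

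The 3 slow troponin genes kept similar proportions to one another. In the 16 libraries with more than 3 counts of both genes, the count ratio of Tnnt1 to Tnnc1 ran from 1.33 to 2.62 with a median of 2.14, and that of Tnni1 to Tnnc1 from 0.370 to 1.19 with a median of 0.686. Over the 18 libraries, log2 CPM of Tnnc1 correlated with that of Tnni1 at r = 0.972 and with that of Tnnt1 at r = 0.943, and without the 2 high libraries at 0.904 and 0.926. The points share groups and depth, and several rest on a handful of counts, so these are descriptions of the 18 libraries.

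Because these 3 genes moved together, their start regions are shown, with Tnnc2 as the fast counterpart of Tnnc1. The lines give bases upstream of the RefSeq start (GRCm38.p6), read 5′ to 3′ on the strand of the gene and limited to the longest stretch that GENCODE release 21 does not annotate as exon. Capitals mark matches to CANNTG (the E-box core bound by myogenic factors), GGAATG on either strand (the MCAT core bound by TEAD factors) and TATAA on the gene strand, and no 2 matches overlapped.
Tnnc1 (chr14:31208062-31208311, plus strand, 250 bases): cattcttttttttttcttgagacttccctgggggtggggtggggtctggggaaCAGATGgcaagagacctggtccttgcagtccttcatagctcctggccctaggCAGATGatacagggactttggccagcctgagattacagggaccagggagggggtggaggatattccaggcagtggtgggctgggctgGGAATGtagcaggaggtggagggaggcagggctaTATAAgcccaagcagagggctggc
Tnni1 (chr1:135799171-135799401, plus strand, 231 bases): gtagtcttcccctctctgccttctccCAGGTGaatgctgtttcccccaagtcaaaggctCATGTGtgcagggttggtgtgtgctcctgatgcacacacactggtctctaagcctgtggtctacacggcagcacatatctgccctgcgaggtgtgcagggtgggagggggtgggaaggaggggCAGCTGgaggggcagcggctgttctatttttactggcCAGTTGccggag
Tnnt1 (chr7:4516005-4516225, minus strand, 221 bases): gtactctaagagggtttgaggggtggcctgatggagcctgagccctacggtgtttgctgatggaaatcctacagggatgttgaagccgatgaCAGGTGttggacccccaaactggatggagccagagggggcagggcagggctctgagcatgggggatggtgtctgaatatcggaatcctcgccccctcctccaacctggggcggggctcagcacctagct
Tnnc2 (chr2:164779742-164779867, minus strand, 126 bases): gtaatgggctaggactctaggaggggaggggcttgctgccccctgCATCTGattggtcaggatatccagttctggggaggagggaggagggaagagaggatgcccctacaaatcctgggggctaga

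The table of start regions held 7 of the 9 genes. The glucocorticoid receptor consensus ACANNNTGT, identical on both strands, had no match in the 250 bases upstream of any of them, and 5.84% of all 32851 windows of that length held it. At that share, no match among 7 genes carries little information. The window leaves out more distant sites, and the study looked for this motif over a wider region. The E-box core occurred 4 times upstream of the first Tnni1 start, 2 times each for Tnnc1 and Tnnc2 and 1 time for Tnnt1, against 66.2% of windows with at least 1 match. Of the 2 for Tnnc2, 1 lies outside the bases shown. GGAATG occurred upstream of Tnnc1 and Tpm1, and in 12.6% of windows. TATAA occurred upstream of Tnnc1 and Tnnt1, for Tnnt1 in bases annotated as exon and not shown, and in 16% of windows. The matches are letters in these windows and carry no measurement of binding.

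The 2 libraries high for slow troponins were also the 2 highest for Myh7, the slow myosin heavy chain. Myh7 was at 667 CPM in weekly female replicate 1, 94.5 CPM in weekly male replicate 3 and 20.9 CPM in daily male replicate 3, and at most 6.85 CPM in the other 15 libraries. The ventricular and slow myosin light chains Myl2 and Myl3 were at 317 and 261 CPM in weekly female replicate 1 and at 57.9 and 90.4 CPM in weekly male replicate 3. By the likeness rule, the 5 genes whose log2 CPM followed the mean of the slow troponins most closely over 18 libraries were Myh7 (r = 0.961, rho = 0.835), Myl2 (0.904, 0.868), Cnksr2 (0.891, 0.773), Myl3 (0.883, 0.791) and Krt19 (0.879, 0.624). Without the 2 high libraries the r values were 0.885, 0.768, 0.871, 0.665 and 0.831. Of these, Cnksr2 never exceeded 2.81 CPM and Krt19 never exceeded 12.2 CPM.

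**Figure D2:**
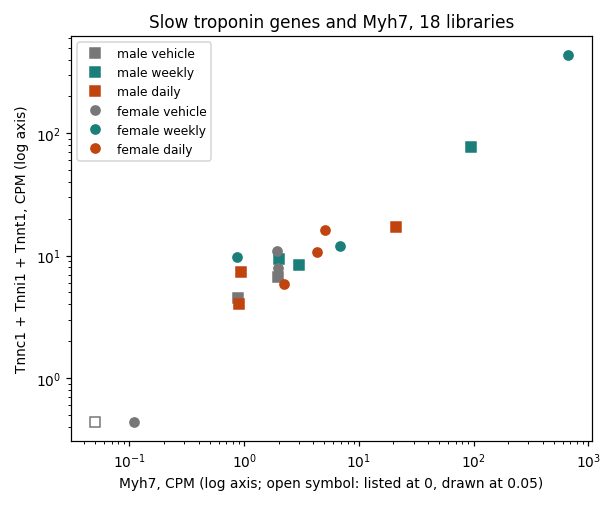
Summed CPM of Tnnc1, Tnni1 and Tnnt1 against CPM of Myh7 in 18 libraries, both on log axes, with squares for males and circles for females; the open square has no Myh7 count. Weekly female replicate 1 (439 and 667 CPM) and weekly male replicate 3 (77.1 and 94.5 CPM) lie apart at the upper right.

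Some other values also set weekly female replicate 1 apart. Its endothelial markers (Pecam1, Cdh5, Kdr and Tek) summed to 353 CPM against 590 to 933 CPM in the other weekly females. Fibroblast, smooth muscle and tendon marker sums were 723, 197 and 195 CPM, against 1624 to 2024, 464 to 676 and 375 to 905 CPM. Mitochondrial counts were 13.1% of the library, against 20.3% and 36.4%. The adipocyte sum of 1947 CPM lay between the 169 and 3110 CPM of the others. In weekly male replicate 3 the endothelial and adipocyte sums were 688 and 227 CPM, against 631 and 516 CPM and 196 and 502 CPM in the other weekly males. There the endothelial sum was slightly higher and the adipocyte sum lay within their range. The part of these values in the slow troponin levels was not tested. In such bulk RNA more slow fibers and more slow-fiber RNA per fiber cannot be told apart.

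The fits for weekly prednisone carried this spread. In males the fitted log2 fold changes (± SE) against vehicle were 3.14 ± 1.55 for Tnnc1, 3.42 ± 1.81 for Tnni1 and 2.94 ± 1.47 for Tnnt1, each with an adjusted p of 0.849 (edgeR quasi-likelihood test, Benjamini-Hochberg over 13596 genes). In females they were 4.63 ± 1.46, 4.85 ± 1.59 and 4.31 ± 1.42, with adjusted p of 0.356, 0.371 and 0.380. None of the 9 genes was called at an adjusted p under 0.05 in either sex, and the test called 0% of all genes in males and 0% in females. At an unadjusted p under 0.05 there were 776 genes in males and 1083 in females, and DESeq2 called 0 and 151. DESeq2 gave Tnnc1, Tnni1 and Tnnt1 no adjusted p, so it could not call them. Left without weekly male replicate 3, the male log2 values were 1.15, 0.89 and 1.35 for Tnnc1, Tnni1 and Tnnt1, and left without weekly female replicate 1 the female values were 0.63, 0.50 and 0.82. Of the 9 genes, Tnnc1 and Tnnt1 had all weekly male libraries above all vehicle male libraries, as did 7.76% of tested genes, and Tnnt1 did so in females, as did 4.94% of tested genes.

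Fitted with all groups, daily prednisone gave slow troponin values with intervals on both sides of 0. In males the log2 fold changes were 1.14 ± 1.69 for Tnnc1, 1.50 ± 2.02 for Tnni1 and 1.27 ± 1.52 for Tnnt1, with adjusted p of 0.659 to 0.732, and in females 0.61 ± 1.50, 0.39 ± 1.70 and 0.89 ± 1.39, with adjusted p of 0.780 to 0.930. The biological coefficient of variation of these genes in the fit was 1.02 to 1.19, against 0.186 to 0.191 for the fast troponin genes and Tpm1. With SEs above 1 log2 unit, a 2-fold change in a slow troponin gene was not detectable in the fit of all groups. That fit includes the high weekly libraries. With only the compared groups fitted, the SEs for Tnnc1, Tnni1 and Tnnt1 were 0.70, 0.75 and 0.78 in males. In females they were 0.63, 0.84 and 0.94. The male log2 values were 1.14, 1.50 and 1.27, each above its SE. None of these genes was called in either sex (edgeR adjusted p of 0.224 to 0.324 in males and 0.659 to 0.841 in females).

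Tpm3, the slow alpha-tropomyosin, was expressed at a level between the slow troponins and the fast genes and varied less than the former. It was at 42.5, 53.0 and 75.9 CPM in vehicle males, 93.8, 53.7 and 91.4 CPM in weekly males and 82.1, 81.4 and 67.1 CPM in daily males. In females it was at 75.7, 52.9 and 91.9 CPM with vehicle, 249, 112 and 74.5 CPM with weekly and 34.6, 94.1 and 70.2 CPM with daily prednisone. Weekly female replicate 1 was again the highest library, 2.22 times the highest of the 16 libraries outside the 2 high ones, whereas weekly male replicate 3 lay within their range. The log2 fold changes were 0.48 ± 0.42 and 0.98 ± 0.42 in weekly males and females (adjusted p = 0.866 and 0.561) and 0.43 ± 0.42 and -0.15 ± 0.41 in daily males and females (adjusted p = 0.577 and 0.888). The weekly female value was 0.34 without replicate 1. Reads of Tpm3 can be shared with its near-identical copies Tpm3-rs7, which had at most 14 counts in a library, and Tpm3-rs2, which had 0, and Tpm3 also makes cytoskeletal tropomyosins in non-muscle cells.

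Of the fast troponin genes, Tnnc2 and Tnni2 fell in daily males, and Tnnt3 did not pass the test in either sex. Tnnc2, the fast calcium-binding subunit, was at 3457, 2721 and 2632 CPM in vehicle males, 1980, 2159 and 1933 CPM in weekly males and 1558, 1371 and 1345 CPM in daily males. The 3 male groups did not overlap. In females Tnnc2 was at 2352, 3315 and 2070 CPM with vehicle, 2303, 1949 and 1521 CPM with weekly and 1916, 1331 and 1466 CPM with daily prednisone, and the vehicle and daily groups did not overlap. Tnnc2 fell in daily males by 1.04 ± 0.21 on the log2 scale (edgeR adjusted p = 0.0114), and the fitted value in daily females was -0.72 ± 0.21 (adjusted p = 0.0986).

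Tnni2, the fast inhibitory subunit, followed the same order. It was at 12378, 10529 and 9912 CPM in vehicle males, 7653, 9034 and 7413 CPM in weekly males and 6254, 5581 and 6720 CPM in daily males, again without overlap between the 3 groups. For Tnnc2 and Tnni2 the share of all tested genes with 3 such separated groups was not counted. Of tested genes, 17.1% had daily males wholly below vehicle males and 8.97% had weekly males so. Females had 7786, 11159 and 7057 CPM with vehicle, 8431, 6485 and 5568 CPM with weekly and 6913, 4832 and 5490 CPM with daily prednisone. Vehicle and daily females were separated only narrowly. Tnni2 fell in daily males by 0.82 ± 0.21 on the log2 scale (edgeR adjusted p = 0.0305), while daily females gave -0.59 ± 0.21 (adjusted p = 0.156).

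Tnnt3, the fast tropomyosin-binding subunit and the most abundant of the 9 genes per kilobase of merged exon, moved less. It was at 27571, 23845 and 21228 CPM in vehicle males, 17614, 19641 and 17843 CPM in weekly males and 16036, 15399 and 17971 CPM in daily males, so the treated groups overlapped each other and lay below vehicle. Females had 19634, 25955 and 17866 CPM with vehicle, 20997, 14516 and 13511 CPM with weekly and 20286, 13809 and 15755 CPM with daily prednisone, with all 3 groups overlapping. Its log2 fold change was -0.56 ± 0.21 in daily males (adjusted p = 0.122) and -0.35 ± 0.21 in daily females (adjusted p = 0.413).

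Tpm1, the fast alpha-tropomyosin, had 25969, 21792 and 19089 CPM in vehicle males, 14952, 17355 and 14764 CPM in weekly males and 13149, 13655 and 13236 CPM in daily males. Females had 17183, 23061 and 15258 CPM with vehicle, 17246, 13039 and 12467 CPM with weekly and 19029, 11502 and 13899 CPM with daily prednisone. The 3 daily male libraries were tightly grouped below both other male groups, and the female groups overlapped. The log2 fold change was -0.74 ± 0.22 in daily males (adjusted p = 0.0503, just above the threshold) and -0.32 ± 0.21 in daily females (adjusted p = 0.463).

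Tpm2, the beta-tropomyosin, was the most variable of the abundant genes. It was at 6777, 5391 and 5122 CPM in vehicle males, 4171, 4345 and 4234 CPM in weekly males and 3688, 2157 and 5250 CPM in daily males. Females had 4628, 5557 and 4893 CPM with vehicle, 7045, 3276 and 3542 CPM with weekly and 5386, 3917 and 4306 CPM with daily prednisone. Daily male replicate 2 was the lowest and weekly female replicate 1 the highest of all libraries. The log2 fold changes against vehicle were -0.64 ± 0.30 and -0.15 ± 0.30 in daily males and females (adjusted p = 0.212 and 0.832), and -0.44 ± 0.30 and -0.12 ± 0.30 in weekly males and females (adjusted p = 0.853 and 0.994).

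**Figure D3:**
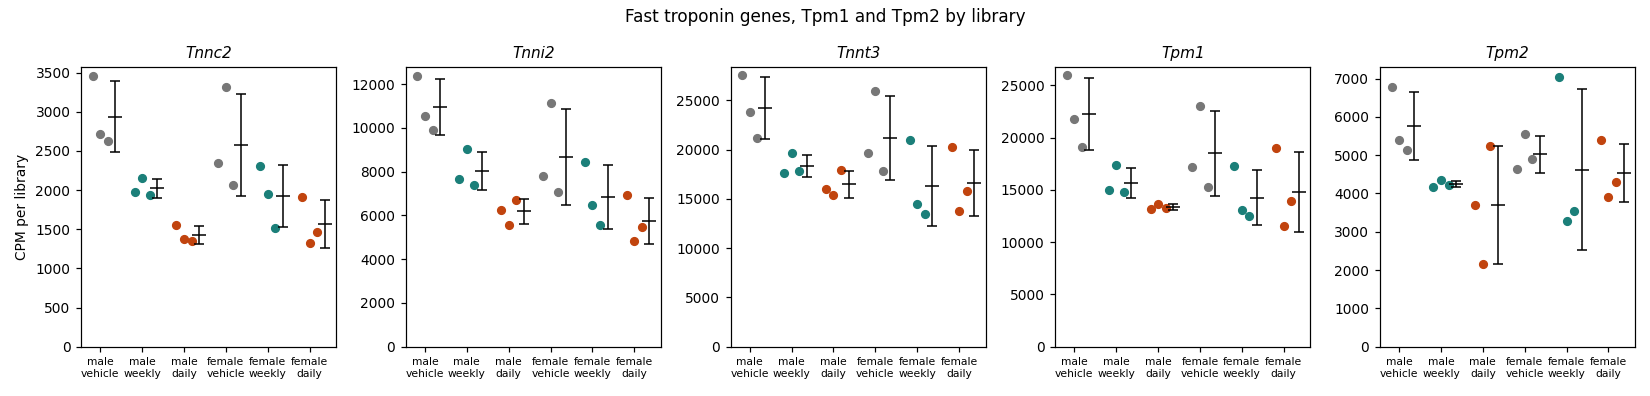
CPM of Tnnc2, Tnni2, Tnnt3, Tpm1 and Tpm2 in each of 18 libraries, by group, with 1 point per library in replicate order and black bars for the group mean ± SD (n = 3). Daily male libraries lie below vehicle male libraries for the first 4 genes, with Tnnc2 at 1345 to 1558 against 2632 to 3457 CPM.

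In daily males 2 of the 9 genes were called, both lower, against 6.47% of all tested genes (282 higher and 597 lower). In daily females none of the 9 was called, against 0.382% of all tested genes; edgeR called 52 genes there, 2353 had an unadjusted p under 0.05, and DESeq2 called 515, Tnnc2 among them (log2 fold change -0.72, adjusted p = 0.0185). With both sexes averaged, Tnnc2 fell by 0.88 ± 0.15 (adjusted p = 0.00153), Tnni2 by 0.71 ± 0.15 (0.00525), Tpm1 by 0.53 ± 0.15 (0.0266) and Tnnt3 by 0.45 ± 0.15 (0.0498), all on the log2 scale. That is 4 of 9, against 15% of all tested genes. Leaving out single libraries, Tpm1 lost this call without vehicle male replicate 1, daily male replicate 1 or 3, vehicle female replicate 2, or daily female replicate 2 or 3 (adjusted p of 0.0578 to 0.0783), and Tnnt3 lost it in 13 of 18 cases (0.0502 to 0.131). The daily response was not shown to differ between the sexes for any of the 9, where edgeR called 0% of all genes and DESeq2 2 genes, and 637 had an unadjusted p under 0.05; Tpm1 had the smallest p, with a difference of 0.42 ± 0.30 on the log2 scale (female minus male, adjusted p = 0.889).

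Counted by separation of the libraries, Tnnc2, Tnni2, Tnnt3 and Tpm1 had all daily male libraries below all vehicle male libraries, as did 17.1% of tested genes, and no member lay wholly above, as 16.4% did. In daily females Tnnc2 and Tnni2 were wholly below vehicle, against 10.2% of tested genes, and none was wholly above, against 12.9%. In weekly males the 3 fast troponin genes, Tpm1 and Tpm2 were wholly below vehicle, against 8.97% of tested genes, and in weekly females none was, against 3.13%. Their log2 fold changes in weekly males ran from -0.54 ± 0.21 for Tnnc2 to -0.40 ± 0.21 for Tnnt3 and in weekly females from -0.42 ± 0.20 for Tnnc2 to -0.12 ± 0.30 for Tpm2, all with adjusted p of 0.637 or more. Daily and weekly comparisons of a sex share their vehicle libraries. Vehicle male replicate 1 was the highest library for Tnnc2, Tnni2, Tnnt3 and Tpm1.

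**Figure D4:**
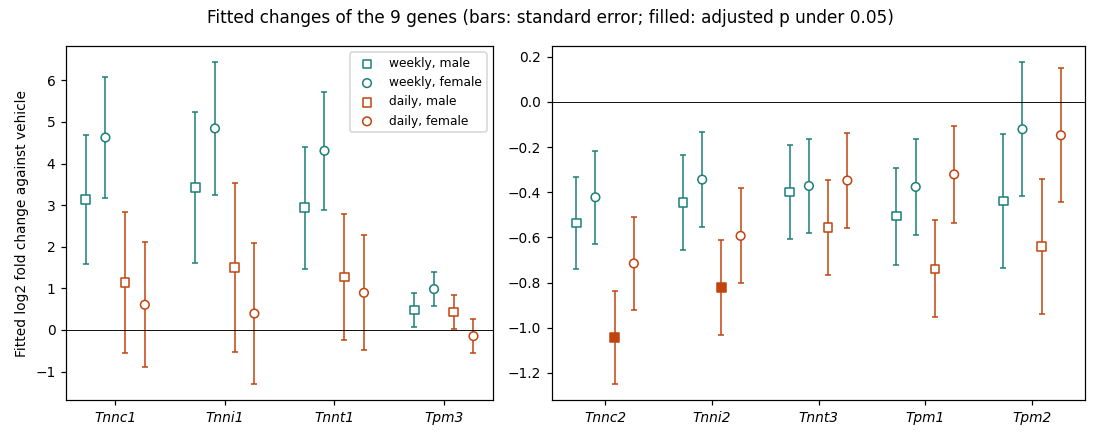
Fitted log2 fold changes against vehicle of the 9 genes in weekly and daily males (squares) and females (circles), with bars for 1 SE and filled symbols for an adjusted p under 0.05; the 2 panels have different vertical scales. Tnnc2 and Tnni2 in daily males are the filled symbols, and the bars of the slow troponin genes span several log2 units.

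The calls in daily males depended on single libraries. Leaving out each library of the vehicle and daily male groups in turn, Tnnc2 ran from -1.11 to -0.89 and lost the call without vehicle male replicate 1 (adjusted p = 0.0667), daily male replicate 2 (0.0552) or daily male replicate 3 (0.0577), and Tnni2 ran from -0.87 to -0.71 and lost it without any 1 of the 6 (adjusted p of 0.0559 to 0.131). With the adipocyte score as a covariate, beside the adipocyte sums given above, the values were -0.93 ± 0.27 (adjusted p = 0.0855) and -0.78 ± 0.28 (0.139). With library trends on transcript length and GC content removed, an alternative chosen after seeing the data, they were -0.73 ± 0.20 (0.0785) and -0.53 ± 0.21 (0.229). Scaled by total counts, Tnnc2 was at -0.80 ± 0.19 (edgeR adjusted p = 0.0176) and Tnni2 at -0.59 ± 0.18 (0.0525), where Tnni2 lost its call. That scaling put the median tested gene at 0.29 in daily males, and relative to it Tnnc2 was at -1.09 and Tnni2 at -0.88. Subtracting the median largely undoes the change of scaling, so these relative values are not a separate check.

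Proportions within a library do not depend on its scaling, and they set Tnnc2 and Tnni2 apart from Tnnt3. The count ratio of Tnnc2 to Tnnt3 was 0.125, 0.114 and 0.124 in vehicle males and 0.0972, 0.0891 and 0.0749 in daily males. In females it was 0.120, 0.128 and 0.116 with vehicle and 0.0944, 0.0963 and 0.0931 with daily prednisone. Every daily library was below every vehicle library of its sex. The weekly ratios lay between, at 0.108 to 0.112 in males, and overlapped vehicle in females at 0.110 to 0.134.

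The count ratio of Tnni2 to Tnnt3 behaved likewise. It was 0.449, 0.442 and 0.467 in vehicle males, 0.434, 0.460 and 0.415 in weekly males and 0.390, 0.362 and 0.374 in daily males. In females it was 0.397, 0.430 and 0.395 with vehicle, 0.402, 0.447 and 0.412 with weekly and 0.341, 0.350 and 0.348 with daily prednisone. Again every daily library was below every vehicle library of its sex, while weekly and vehicle overlapped. For Tpm1 the ratio to Tnnt3 was 0.942, 0.914 and 0.899 in vehicle males and 0.820, 0.887 and 0.737 in daily males, again with every daily below every vehicle library. In females it was 0.875, 0.889 and 0.854 with vehicle and 0.938, 0.833 and 0.882 with daily prednisone, and the groups overlapped. The share of tested genes with a lower ratio to Tnnt3 in daily males alone was not counted. A ratio to Tnnt3 that was lower in all daily than in all vehicle libraries of both sexes was found for Tnnc2 and Tnni2 among the members and for 0.64% of the 13595 tested genes set against Tnnt3. The members and this ratio were chosen with values known, so the share is a description.

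**Figure D5:**
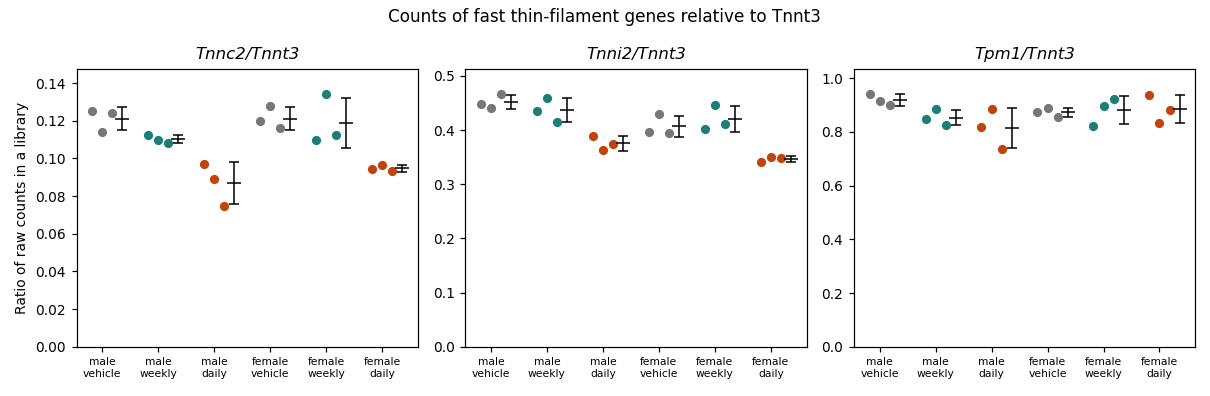
Ratios of raw counts of Tnnc2, Tnni2 and Tpm1 to Tnnt3 in each of 18 libraries, by group, with 1 point per library and black bars for the group mean ± SD (n = 3). The first 2 ratios are lower in every daily library than in every vehicle library of the same sex, 0.0749 to 0.0972 against 0.114 to 0.125 for Tnnc2 in males, and the third overlaps in females.

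In GENCODE release 21 (mm10), Tnnc1, Tnnc2 and Tnnt3 overlap another gene and the other members do not. Prr33 overlaps the start of Tnnt3 on the other strand, and exon bases shared by the 2 were not counted. Tnni1 is at chr1:135779434-135810989 on the plus strand, Tnnt1 at chr7:4504570-4516382 on the minus strand and Tpm3 at chr3:90072649-90100902 on the plus strand. Tpm1 is at chr9:67022590-67049406 and Tpm2 at chr4:43514711-43523765, both on the minus strand. The strand setting of the counting is not given in the sources used here, so overlapping genes are listed. Tnnc2 (chr2:164777161-164779967, mm10, minus strand) shares 592 of its 800 exon bases with Ube2c on the other strand, a gene of cell division. Ube2c was at 187, 148 and 145 CPM in vehicle males and 72.0, 60.9 and 36.1 CPM in daily males, a fitted change of -1.50 ± 0.24 on the log2 scale (adjusted p = 0.00678), and its counts were 2.68% to 6.35% of those of Tnnc2 in all libraries. Reads of the pair cannot be told apart without strand. Tnnc1 (chr14:31208312-31211729, plus strand) lies inside Nisch on the other strand, and exon bases shared by the 2 were not counted. Nisch had a mean of 90.2 to 109 CPM in the 6 groups, far above Tnnc1 in most libraries. Tnni2 (chr7:142441808-142444410) and Tnnt3 (chr7:142498836-142516009) stand 54425 bases apart on the plus strand with Lsp1 between them, an actin-binding gene of leukocytes named here after its values were seen, whose log2 fold change in daily males was -1.09 ± 0.16 (adjusted p = 0.00578).

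The ratio of each slow gene to its fast counterpart joined both sides of the switch. On the log2 scale and per length, Tnnc1 to Tnnc2 averaged -11.85 ± 1.55 (SD, n = 3) in vehicle males, -8.94 ± 1.90 in weekly males and -9.69 ± 1.09 in daily males, and -10.99 ± 1.54, -7.89 ± 2.93 and -9.61 ± 1.12 in the female groups in the same order. Weekly female replicate 1 was at -4.54 and weekly male replicate 3 at -6.75, the 2 highest of 18. Weekly female replicate 1 was also the highest for Tnni1 to Tnni2, at -7.39, and for Tnnt1 to Tnnt3, at -7.27. At the low end, vehicle male replicate 1 and vehicle female replicate 2 held at most 4 counts of any slow troponin gene, so their ratios, and with them the vehicle means, depend on the 2 counts added to each gene. With 0.5 or 5 counts added, the vehicle mean of Tnni1 to Tnni2 ran from -15.72 to -14.69 in males and from -15.14 to -13.86 in females. In each sex the weekly and daily means of these 3 ratios were above the vehicle mean, by less than the sum of the group SDs in every case. Tpm3 to Tpm1 averaged -8.54 ± 0.64, -7.57 ± 0.58 and -7.35 ± 0.16 in vehicle, weekly and daily males and -7.89 ± 0.71, -6.69 ± 0.64 and -7.79 ± 1.11 in females.

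The fast genes varied together. Over the 18 libraries, log2 CPM of Tnnt3 and Tpm1 correlated at r = 0.967, Tnnc2 and Tnni2 at 0.944 and Tnni2 and Tnnt3 at 0.942, whereas Tpm2 correlated with the 4 others at 0.646 to 0.760. The 5 genes most like the mean of the fast troponins were Ran (r = 0.975, rho = 0.967), Pebp1 (0.969, 0.969), Drap1 (0.969, 0.975), Nol3 (0.965, 0.955) and Park7 (0.961, 0.924). Ran, a GTPase of nuclear transport, ranged from 70.7 to 118 CPM, and Park7, a protein of the oxidative stress response, from 262 to 651 CPM.

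No member was called in the remaining comparisons. Weekly prednisone in both sexes together left Tnnc1 with the smallest p, at 3.88 ± 1.06 on the log2 scale (adjusted p = 0.212), and at 0.88 ± 0.55 without the 2 high libraries; 0% of all genes were called by edgeR, 1492 had an unadjusted p under 0.05, and DESeq2 called 178. The difference of the weekly response between the sexes was smallest in p for Tpm3, at 0.50 ± 0.59 (female minus male, adjusted p = 1), where edgeR called 0% of genes and DESeq2 0 genes, and 357 had an unadjusted p under 0.05. Daily against weekly prednisone gave Tnnc2 at -0.51 ± 0.21 in males (adjusted p = 0.294) and Tnni1 at -4.45 ± 1.51 in females (adjusted p = 0.152), the second of which was -0.10 without weekly female replicate 1, and edgeR called 0% of genes in each, with 1829 and 2400 at an unadjusted p under 0.05 and 171 and 522 called by DESeq2. Vehicle females and males differed by -0.34 ± 0.21 for Tnni2 (female minus male, adjusted p = 0.599), against 0.765% of all genes called.

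Among other thin filament genes, the skeletal actin Acta1 was at -0.48 ± 0.24 in daily males (adjusted p = 0.240), and none of the 11 tested of 12 was called in either sex. With both sexes averaged, Actc1, the cardiac actin, fell by 1.17 ± 0.31 (adjusted p = 0.0189) and Neb, the nebulin ruler of the filament, rose by 0.68 ± 0.19 (0.0221), which is 2 of 11, close to the 15% called among all tested genes, and the list's median was 0.07 against 0.02 for all genes. The cardiac troponin genes, named for their place beside members, were low, with Tnnt2 at group means of 1.63 to 3.29 CPM and Tnni3, 1922 bases from Tnnt1, at 0.119 to 0.401 CPM.

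The list of other slow-program genes was tested next. In weekly libraries all 10 had a positive log2 fold change in each sex and none was called, with medians of 1.37 in males and 1.16 in females against 0.01 for all genes in each. Myh7 was at 5.18 ± 2.35 and 7.32 ± 2.35 in weekly males and females (adjusted p = 0.849 and 0.361), and Atp2a2, the slow calcium pump, at 0.69 ± 0.43 and 1.45 ± 0.44 (0.849 and 0.309). Without weekly male replicate 3 and weekly female replicate 1, left out after seeing the data, 8 of 10 were positive in each sex with medians of 0.43 and 0.28, Myh7 was at 1.45 ± 1.56 and 1.47 ± 1.40 (adjusted p = 0.884 and 0.678) and Atp2a2 at 0.45 ± 0.21 and 0.39 ± 0.21 (0.816 and 0.443). In daily libraries 6 of 10 were positive in males and 8 of 10 in females, with none called.

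In the fast program, Pvalb and Casq1 were called in daily males, 2 of 11, against 6.47% of all tested genes. Pvalb, the calcium buffer parvalbumin of fast fibers, fell by 1.10 ± 0.20 on the log2 scale (adjusted p = 0.00856), and Casq1, the fast calsequestrin, by 0.60 ± 0.18 (0.0492). Myh4, the myosin heavy chain of the fastest fibers, was at 0.09 ± 0.23 in daily males (adjusted p = 0.850), beside -1.04 for Tnnc2 in the same libraries. With both sexes averaged 5 of 11 fell (Pvalb, Mylpf, Myl1, Casq1 and Myoz1) and none rose, against 15% of all tested genes called, with a median of -0.20 against 0.02 for all genes. None was called in daily females or with weekly prednisone, where the medians were -0.31 in males and -0.36 in females.

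Of 12 regulators of fiber type, none was called against vehicle within a sex. With both sexes averaged, daily prednisone raised Mef2a by 0.47 ± 0.11 (adjusted p = 0.00838) and Sox6, a repressor of slow-fiber genes, by 0.57 ± 0.15 (0.0159), with a list median of 0.13 against 0.02. These are 2 of 12, close to the 15% called among all tested genes. Of 4 developmental genes, Myh8, the perinatal myosin, rose by 1.01 ± 0.26 in that comparison (adjusted p = 0.0146), from a mean of 2.66 CPM over all libraries.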

How the data were processed

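RNA was sequenced from isolated quadriceps myofibers in 18 libraries, 3 per group of sex and treatment, from 3 animals per group by the series' design. The authors deposited 1 table of unnormalized counts of reads by gene. The study's methods give alignment to mm10, and the submitters' processing notes list TopHat2 2.1.0, Bowtie2 2.2.6, HTSeq and the builds mm10 and mm9 without their roles. Total counts were 10506661 to 14686654 per library. The strand setting and annotation release are not given in the sources used here. Of the table's identifiers, 42462 of 43430 had a symbol.

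The counts were fitted in R 4.3.3 with edgeR 4.0.16 (filterByExpr with a minimum count of 10, TMM factors, robust quasi-likelihood, 6 group means over 18 libraries), and Benjamini-Hochberg adjustment ran over 13596 genes, with 0.05 as threshold. The test is two-sided, and standard errors come from the log2 fold change and its F statistic. CPM are TMM-scaled; per-kilobase levels use the merged exon length in GENCODE release 21, since the Length column of the table differs from it (1965 against 1041 bases for Tnnc1). Ratios of slow to fast genes used a prior count of 2 and have no test. Zero counts are read as up to 3 counts, which covers counting error only. Steps were tested on simulated data.

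The members and lists were chosen with earlier results of these data known. Named genes were the 9 members, the called genes of each list with some others of it, and the 5 genes most correlated with each troponin mean, leaving out unnamed gene models. The list genes named therefore lean toward called ones. Alternatives were DESeq2 1.42.0 and its size factors, total count scaling, limma-voom (limma 3.58.1), other filters, mitochondrial genes left out, a fit of only the groups compared, a block for replicate number, a covariate for the adipocyte score and leaving out each library. Removal of length and GC trends and leaving out 2 weekly libraries were added after seeing the data. Among all pairs of groups, only in female weekly and daily libraries did all 3 same-numbered pairs deviate together (r = 0.501, 0.483 and 0.439). The labels name no shared litter or day, and the numbers in the library names differ within these pairs. No pairing is therefore known from the design, and the block is an alternative only.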

Additional observations from a re-analysis of the deposited data

How the results depend on the processing

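Of the 9 genes, 2 were called in daily males. This count was higher where Tpm1 also passed. In edgeR that held with DESeq2 size factors (adjusted p = 0.0486), the stricter filter (0.0428), only the compared groups (0.0289) and the replicate block. Tpm1 also passed in edgeR without the 2 weekly libraries highest in Myh7 (0.0367), and with limma-voom (0.0486). With DESeq2 the count was 4, with Tpm1 (adjusted p = 0.00686) and Tnnt3 (0.0463) added. The count was 1 with total count scaling, 0 with the adipocyte score as covariate and 0 with length and GC trends removed. When single libraries were left out it was 0 to 3. In daily females it was 0, and 1 with DESeq2. With both sexes averaged it was 4, and 2 with total count scaling, 0 with the adipocyte score, 1 with length and GC trends removed, and 2 to 4 when single libraries were left out. It stayed at 0 in the other 8 comparisons under every alternative run, although DESeq2 could not call the slow troponin genes. The cause of the shifts in this count was not tested. With the adipocyte score, the daily female log2 values of Tnnc1, Tnni1 and Tnnt1 turned to -0.85, -0.95 and -0.26. With total count scaling, which put the median gene at 0.29, 0.21, 0.13 and 0.16 in daily males, daily females, weekly males and weekly females, Tpm2 turned to 0.0512 in daily and 0.0515 in weekly females and Tpm3 to 0.0701 in daily females. Without the 2 weekly libraries highest in Myh7, chosen after seeing the data, the sex difference of the weekly response of Tpm3 was -0.0449. Leaving out single libraries, Tnni1 ran from -0.13 to 1.40 and Tpm3 from -0.49 to 0.16 in daily females, Tpm2 from -0.56 to 0.0572 in weekly females, and the weekly sex difference of Tpm3 from -0.14 to 0.82. Calls over all genes varied more: 879 in daily males became 1302 with DESeq2, 1530 with the compared groups alone, 21 with the adipocyte score and 62 with length and GC trends removed, and 52 in daily females became 515, 0, 0 and 0 under these, 361 with total count scaling, 2 without mitochondrial genes, 29 without the filter, 8 with the block and 216 without the 2 weekly libraries. With both sexes averaged, 2033 became 3482 with total count scaling, 0 with the adipocyte score and 684 with the trends removed. Leaving out single libraries gave 92 to 1305, 0 to 299 and 1340 to 2480 calls in these 3 comparisons, and 43 to 175 between vehicle females and males, where 104 became 221 with DESeq2. Of the comparisons with 0 calls, daily against weekly females had 522 calls with DESeq2 and 334 without the 2 weekly libraries, and weekly females 151 with DESeq2 and 253 without weekly female replicate 2. With the replicate block, Tpm1 in daily males passed the threshold (log2 fold change -0.73, adjusted p = 0.0461). Tnni1 in daily against weekly females was at -3.69 with it (adjusted p = 0.305), and the block changed no other call of a member. DESeq2 gave the slow troponin genes no adjusted p. With the Length column of the table in place of exon length, Tnnt1 to Tnnt3 averaged -9.50 in weekly males. Slow troponin levels of a few counts limit every statement on them.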
